A study of Mus musculus with 2 samples.

Results

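Caveolae are flask-shaped pits of the plasma membrane that can carry molecules across endothelial cells (ECs), a route called transcytosis. Caveolin-1 (Cav1) and caveolin-2 (Cav2) sit in the membrane of the pit, the cavins (Cavin1, Cavin2 and Cavin3) coat it from the cytoplasm, and the ATPase Ehd2 holds its neck. Ehd4 is a relative of Ehd2 known from endosomal recycling, and Plvap forms the diaphragms that close some caveolae and fenestrae. Mfsd2a carries lysophospholipids into ECs and is known in brain ECs for keeping caveolar transcytosis low. These 9 genes were followed through single cells of the mouse stria vascularis (SV), the layered tissue of the cochlea that secretes endolymph and whose capillaries form the blood-labyrinth barrier. All 9 were found by Ensembl identifier among the 27040 genes listed for both libraries, Cavin1, Cavin2 and Cavin3 under the older symbols Ptrf, Sdpr and Prkcdbp in 1 of them.

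The study prepared 2 droplet libraries (10x Chromium 3′), each from the pooled SV of 20 cochleae of 10 mice aged 1 to 3 months. One came from Tie2-GFP mice, in which the promoter of Tek, an endothelial receptor, drives GFP, and the other from NG2-DsRed mice, in which DsRed is driven by the promoter of Cspg4, a gene of pericytes and other mural cells. Both carry the reporter alone and neither was treated, the tissue was dissociated with collagenase IV and papain, and the methods describe sorting by fluorescence when required. Reporter line, mouse pool, library, counting software version and gene list (32285 genes for Tie2-GFP, 27998 for NG2-DsRed) change together, so these cannot be told apart. With 1 library per line no test was run. All intervals are 95% intervals and cover counting error only.

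Cell barcodes were classed by genes other than the 9. Endothelial barcodes had a UMI (unique molecular identifier, 1 counted RNA molecule) of at least 4 of Pecam1, Cdh5, Cldn5, Flt1, Egfl7 and Ramp2. Mural barcodes had at least 3 of Pdgfrb, Rgs5, Vtn and Notch3 and at most 1 endothelial gene, and intermediate barcodes, the melanocyte-like cells of the SV, had Dct, Tyr and Kcnj10. The Tie2-GFP library (633 barcodes, 5432289 UMIs) gave 368 endothelial, 84 intermediate and 2 mural barcodes. The NG2-DsRed library (201 barcodes, 1232599 UMIs) gave 54 endothelial, 94 mural and 23 intermediate barcodes. No barcode sequence was shared by the libraries (0 barcodes). A set of 7 further endothelial markers, Tek among them, was present in at least 25% of endothelial barcodes of both libraries for 7 of 7 genes, and 8 of 8 further mural markers were present in at least 25% of the mural barcodes of the NG2-DsRed library. Of 6 further intermediate markers only 3 reached 25% of intermediate barcodes, and Tyrp1 and Kit were at 0 in both libraries. The median mitochondrial share of intermediate barcodes was 9.36% and 5.55% of UMIs in the Tie2-GFP and NG2-DsRed library, against 1.79% and 2.67% in endothelial barcodes. Haemoglobin genes summed to 2295 CPM in Tie2-GFP endothelial barcodes, each with a UMI in at most 5.43% of them. In the NG2-DsRed library 29 of the 54 endothelial barcodes also carried at least 3 of the 4 mural genes, against 24 of 368 in the Tie2-GFP library, and all 8 further mural markers were present in at least 25% of them, at a summed level of 1535 CPM against 9001 CPM in mural barcodes. CPM is a gene's part of the UMIs summed over a class, scaled to 1000000.

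On the mouse genome (GRCm38, GENCODE M21) the genes lie on 7 chromosomes. Cav2 (chr6:17281185-17289115) and Cav1 (chr6:17306335-17341452) are neighbours on the plus strand, 17.22 kb apart. Cavin3 (chr7:105480083-105482300) and Ehd2 (chr7:15946958-15967567) share chromosome 7. Mfsd2a lies at chr4:122946850-122961188, Cavin1 at chr11:100956733-100970887, Cavin2 at chr1:51289126-51302960, Ehd4 at chr2:120089175-120154606 and Plvap at chr8:71497765-71511752. Plvap overlaps Gtpbp3 on the opposite strand, and antisense genes overlap Cav1, Cav2 and Cavin2. The promoters of 3 members with unlike distributions are shown: Cavin2, with no UMI in mural barcodes, Mfsd2a, low and scattered among ECs, and Cavin1, shared by ECs and mural cells. Each line is the 250 bases before the RefSeq start site (GRCm38.p6), read 5′ to 3′ on the strand of the gene, with CG pairs in capitals.
Cavin2 (chr1:51288876-51289125, plus strand): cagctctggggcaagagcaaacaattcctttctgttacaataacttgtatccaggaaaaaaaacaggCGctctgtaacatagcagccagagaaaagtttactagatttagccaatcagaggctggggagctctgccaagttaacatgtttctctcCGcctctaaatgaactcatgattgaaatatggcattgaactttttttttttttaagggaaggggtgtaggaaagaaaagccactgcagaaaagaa
Mfsd2a (chr4:122961189-122961438, minus strand): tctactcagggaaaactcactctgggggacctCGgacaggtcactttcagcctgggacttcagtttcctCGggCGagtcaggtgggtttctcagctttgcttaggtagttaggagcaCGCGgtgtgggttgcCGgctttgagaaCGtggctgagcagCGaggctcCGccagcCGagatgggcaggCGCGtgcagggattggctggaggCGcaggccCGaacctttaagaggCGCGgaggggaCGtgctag
Cavin1 (chr11:100970618-100970867, minus strand): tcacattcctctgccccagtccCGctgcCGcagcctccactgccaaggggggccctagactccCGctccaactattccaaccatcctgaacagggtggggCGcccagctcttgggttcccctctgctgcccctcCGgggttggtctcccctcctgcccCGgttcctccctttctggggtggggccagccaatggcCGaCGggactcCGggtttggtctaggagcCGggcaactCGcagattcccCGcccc
The Cavin2 stretch held 2 CG pairs and 40.4% G or C, and 29.0% of 32851 mouse promoters held as few CG pairs. The Mfsd2a stretch held 17 CG pairs at 61.6% G or C, and the Cavin1 stretch 12 pairs at 67.6%. The other 4 members with a promoter entry (Cav1, Cav2, Ehd2 and Ehd4) held 10 to 21 pairs at 58.0 to 62% G or C, against a median of 6 pairs and 52.4% over all promoters. Cavin2 was thus the one member of the 7 whose stretch was below both medians.

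The 9 genes fell into groups by class. Plvap and Cavin2 had 0 UMIs in the mural barcodes of the NG2-DsRed library, and Mfsd2a had 1. Cavin3 and Ehd2 were at similar levels in endothelial and mural barcodes of the NG2-DsRed library, and Cavin1 was lower in endothelial (275 CPM) than in mural barcodes (456 CPM). Cavin1, Cavin3 and Ehd2 were low in intermediate barcodes of the Tie2-GFP library, and Cav1 and Cav2 were present in all 3 classes. Ehd4 was lower in mural than in Tie2-GFP endothelial barcodes and lowest in intermediate barcodes. A median of 6 of the 9 genes had a UMI in a Tie2-GFP endothelial barcode and 5 in an NG2-DsRed endothelial barcode, against 2 in mural barcodes and 2 and 3 in intermediate barcodes of the Tie2-GFP and NG2-DsRed library. Depth differed between classes: median UMIs per barcode were 7502.5 and 9010 in endothelial, 3017.5 in mural and 15339.5 and 10383 in intermediate barcodes, so shares of barcodes are also given at an equal depth of 2575 UMIs per barcode. This left out 22 of 368 and 2 of 54 endothelial, 35 of 94 mural, and 3 of 84 and 1 of 23 intermediate barcodes with fewer UMIs.

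**Figure D1:**
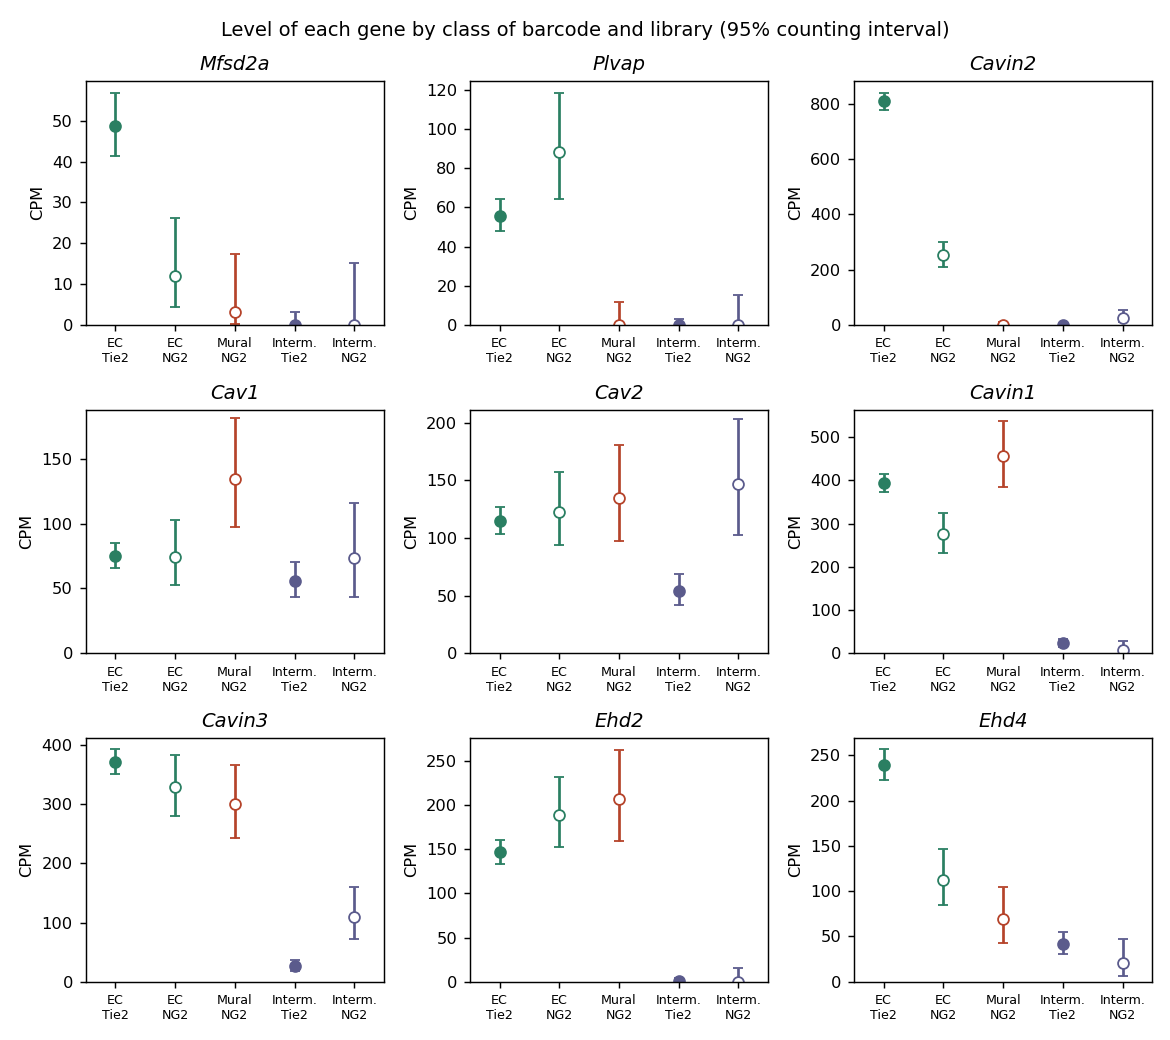
Level of each of the 9 genes in CPM (each panel has its own axis from 0) in endothelial (EC), mural and intermediate (Interm.) barcodes; filled points are the Tie2-GFP and open points the NG2-DsRed library, and bars are 95% Poisson intervals. Cavin2 was at 809 CPM in Tie2-GFP ECs and at 0 in mural barcodes, while Cavin1 was at 393 CPM and 456 CPM in the same classes. The 2 mural barcodes of the Tie2-GFP library are not drawn.

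Cavin2 had the largest lower bound on the contrast between ECs and mural cells. With Plvap also at 0 UMIs in mural barcodes, Cavin2 and Plvap cannot be ordered by contrast. Cavin2 was at 809 CPM (778 to 840) in Tie2-GFP endothelial barcodes, with a UMI in 94.3% of them, and at 253 CPM (211 to 301) in NG2-DsRed endothelial barcodes. In the 94 mural barcodes 0 had a Cavin2 UMI, and the limit set by 3 counts is a level of 9.38 CPM. At a median of 3017.5 UMIs per mural barcode this does not bound the share of cells that hold the RNA. Intermediate barcodes, the deepest class, held 1 UMI over 84 barcodes in the Tie2-GFP library (0.829 CPM) and 6 UMIs over 23 barcodes in the NG2-DsRed library (24.5 CPM). After thinning, the expected share with a UMI was 79.0% and 39.6% of endothelial barcodes in the Tie2-GFP and NG2-DsRed library, 0% of mural and 0.223% and 5.24% of intermediate barcodes. Cavin2 shapes caveolae in concert with Cavin1, which the mural barcodes did contain.

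Plvap was likewise found in endothelial barcodes and at 0 UMIs in mural and intermediate barcodes. Its level was 55.7 CPM (47.9 to 64.4) in Tie2-GFP and 88.4 CPM (64.2 to 119) in NG2-DsRed endothelial barcodes, and 26.9% and 37.0% of them had a UMI. It had 0 UMIs in 94 mural, 84 and 23 intermediate barcodes, which allows up to 9.38 CPM in mural barcodes and up to 2.49 and 12.2 CPM in intermediate barcodes of the Tie2-GFP and NG2-DsRed library.

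Mfsd2a was at 48.7 CPM (41.5 to 56.9) in Tie2-GFP endothelial barcodes, from 160 UMIs in 89 barcodes (24.2%, 19.9 to 28.9). Of these 89 barcodes 55 held 1 UMI, 13 held 2 and 21 held 3 or more, up to 9. In NG2-DsRed endothelial barcodes it was at 12.1 CPM (4.42 to 26.2), from 6 UMIs in 3 barcodes. Mural barcodes held 1 UMI (3.13 CPM, 0.0792 to 17.4), and intermediate barcodes 0 in both libraries. The intervals of the NG2-DsRed endothelial and mural barcodes overlap, so an order of these classes was not detectable at this depth. Of all Mfsd2a UMIs in the Tie2-GFP library, 98.2% lay in endothelial barcodes, and of those in the NG2-DsRed library 60% lay in endothelial, 10% in mural and the rest in unclassed barcodes.

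Cavin1, without which caveolae do not form in most cells, was at 393 CPM (372 to 415) and 275 CPM (231 to 325) in endothelial barcodes of the Tie2-GFP and NG2-DsRed library, and at 456 CPM (385 to 537) in mural barcodes. Intermediate barcodes were at 23.2 CPM (15.4 to 33.5) and 8.16 CPM (2 UMIs). Cavin3 was at 372 CPM (351 to 394) and 329 CPM (281 to 384) in endothelial and 300 CPM (243 to 367) in mural barcodes, 3 levels whose neighbours overlap. In intermediate barcodes it differed between libraries, at 26.5 CPM (18.1 to 37.4) in the Tie2-GFP and 110 CPM (72.6 to 160) in the NG2-DsRed library.

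Ehd2 was at 146 CPM (134 to 160), 189 CPM (153 to 231) and 206 CPM (160 to 263) in Tie2-GFP endothelial, NG2-DsRed endothelial and mural barcodes, and had 1 UMI in 84 and 0 UMIs in 23 intermediate barcodes. Ehd4 had another order, with 239 CPM (223 to 257) and 113 CPM (85.0 to 146) in endothelial, 68.8 CPM (43.1 to 104) in mural, and 41.4 CPM (30.8 to 54.6) and 20.4 CPM (6.63 to 47.6) in intermediate barcodes. Within the NG2-DsRed library the intervals of endothelial and mural barcodes overlap for Ehd4, and those of mural and intermediate barcodes do so by a few CPM.

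The caveolins were the least restricted members. Cav1 was at 75.2 CPM (66.1 to 85.2) and 74.3 CPM (52.3 to 102) in endothelial, 134 CPM (97.3 to 181) in mural, and 55.5 CPM (43.0 to 70.5) and 73.5 CPM (43.6 to 116) in intermediate barcodes. Cav2 was at 115 CPM (103 to 127), 123 CPM (93.7 to 157), 134 CPM (97.3 to 181), 53.9 CPM (41.6 to 68.7) and 147 CPM (103 to 203) in the same order. For Cav2 only the intermediate barcodes of the Tie2-GFP library stood apart from the rest in summed UMIs. With each barcode weighted equally they were at 99.9 CPM, near the 111 to 130 CPM of the others. Equal weight lets 3 barcodes with fewer than 2575 UMIs (lowest 626) count as much as the deep ones, and their part was not tested. At equal depth, with those 3 left out, the class still stood apart, with a thinned share of barcodes with Cav2 of 10.6%. This share was 26.2% and 26.5% in endothelial, 25.8% in mural and 29.6% in NG2-DsRed intermediate barcodes. The thinned share of barcodes with Cav1 was 12.2% and 19.4% in intermediate against 16.1% and 15.9% in endothelial barcodes.

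The comparison of ECs with mural cells was made within the NG2-DsRed library, where both classes come from the same pool. A gene was counted as higher where its CPM differed at least 2-fold and both classes together held at least 50 UMIs. A member can pass this minimum through 1 class alone, so no count of members is read against the share over all genes. Of the 7 members with enough UMIs 1 was higher in endothelial barcodes, Cavin2, by at least 27.0-fold, and 0 were higher in mural barcodes. Over all 3054 genes with enough UMIs 16.2% were higher in endothelial and 13.4% in mural barcodes. Plvap (44 UMIs, under the minimum) was at least 9.42-fold higher in endothelial barcodes, and Mfsd2a had a log2 ratio of 1.95 with an interval of −1.10 to 7.47. Cavin1 and Cav1 leaned to mural barcodes, with log2 ratios of −0.73 (−1.08 to −0.38) and −0.85 (−1.53 to −0.19), short of 2-fold. With the endothelial barcodes of 3 or 4 mural genes left out, an alternative added after seeing the data, Cav1 passed 2-fold, at a log2 ratio of −1.45. This rests on few UMIs. The barcodes left in were 16 with at most 1 mural gene and 9 with 2 mural genes. The 16 alone held 8 Cav1 UMIs, at 69.8 CPM (30.1 to 138). Mural barcodes were at 134 CPM (97.3 to 181), an interval that overlaps that of the 16. This overlap does not cover the ratio of −1.45, which also includes the 9 and whose interval is not given here. The intervals of Cav2 (−0.72 to 0.46), Cavin3 (−0.24 to 0.51), Ehd2 (−0.60 to 0.35) and Ehd4 (−0.02 to 1.49) held 0.

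Many NG2-DsRed endothelial barcodes carried mural genes, whose part in these ratios was not tested. In the 16 endothelial barcodes with at most 1 mural gene, Cavin1 was at 201 CPM (127 to 301), Cavin3 at 209 CPM (134 to 312) and Ehd2 at 148 CPM (86.4 to 238), all below the 275, 329 and 189 CPM of the whole class. Cavin2 and Plvap were above the whole class there, at 384 CPM (279 to 515) and 140 CPM (79.8 to 227), and the intervals overlap for all 5 genes. Cav2 was at 140 against 123 CPM, Cav1 at 69.8 against 74.3 CPM and Ehd4 at 105 against 113 CPM in the same barcodes and the whole class. The whole class contains these 16 barcodes. In the separate 29 barcodes with at least 3 mural genes Cavin2 was at 206 CPM (159 to 263), an interval below that of the 16. The intervals of these 29 and 16 barcodes overlap for Cavin1, Cavin3, Ehd2 and Plvap. When Tie2-GFP endothelial barcodes were set against NG2-DsRed mural barcodes, a comparison in which class and library change together, 4 of 9 members were higher in endothelial barcodes (background 21.6% of 7399 genes): Cavin2 by at least 86.2-fold, Mfsd2a 15.6-fold (1 mural UMI), Plvap by at least 5.94-fold and Ehd4 3.48-fold. Those 4 were also higher with Tie2-GFP endothelial barcodes limited to at most 1 mural gene. Of them Cavin2, Mfsd2a and Plvap, with 0 or 1 mural UMI, passed the minimum of UMIs through endothelial barcodes alone.

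Against intermediate barcodes of the Tie2-GFP library, 8 of 9 members were higher in endothelial barcodes, where 29.7% of 8219 genes were. Mfsd2a, Plvap, Cavin2 and Ehd2, with 0 or 1 UMI in intermediate barcodes, passed the minimum of UMIs through endothelial barcodes alone. Cavin1 was 16.9-fold higher (log2 4.08, 3.54 to 4.68), Cavin3 14.0-fold (3.81, 3.31 to 4.36) and Ehd4 5.77-fold (2.53, 2.12 to 2.97). Cavin2 (2656 UMIs against 1) and Ehd2 (481 against 1) had log2 ratios of 9.93 (7.45 to 15.2) and 7.47 (4.98 to 12.8). Plvap was at least 22.4-fold and Mfsd2a at least 19.6-fold higher. Cav2 passed narrowly at 2.13-fold, and Cav1 did not at 1.35-fold. With each barcode weighted equally, which gives shallow barcodes more weight, the log2 ratio of Cav2 was 0.24 in place of 1.09, and 7 of 9 members were counted.

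In the NG2-DsRed library 5 of 7 members with enough UMIs were higher in endothelial than in intermediate barcodes (background 30.3%): Cavin1 33.7-fold, Ehd2 at least 15.4-fold, Cavin2 10.3-fold, Ehd4 5.51-fold and Cavin3 2.99-fold. Mural barcodes were higher than intermediate barcodes for 3 of 5 members with enough UMIs (background 25.9% of 2097 genes), namely Cavin1 (55.9-fold), Ehd2 (at least 16.8-fold) and Cavin3 (2.72-fold). Cavin1, Ehd2, Cavin2 and Ehd4, with 0 to 6 UMIs in intermediate barcodes, passed the minimum of UMIs through endothelial barcodes alone. Cavin1 and Ehd2 passed it through mural barcodes alone in the second comparison. Both were higher in the 2 vascular classes than in intermediate barcodes of this library. Cav1 and Cav2 had endothelial to intermediate log2 ratios of 0.02 (−0.83 to 0.92) and −0.26 (−0.88 to 0.37).

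Endothelial barcodes of the 2 libraries differed in 3 of the 9 members, all higher in the Tie2-GFP library (11.7% of 7402 genes were, and 9.82% were higher in the NG2-DsRed library). Mfsd2a was 4.04-fold higher (log2 2.02, 0.86 to 3.48), Cavin2 3.19-fold (1.68, 1.42 to 1.95) and Ehd4 2.13-fold (1.09, 0.70 to 1.51). Plvap went the other way, at a log2 ratio of −0.67 (−1.15 to −0.16). Within the Tie2-GFP library, the 24 endothelial barcodes with at least 3 mural genes (median 17598.5 UMIs) held less Mfsd2a than the 338 with at most 1 (median 7246 UMIs), at 14.8 against 53.5 CPM, and less Cavin2, at 532 against 850 CPM. The 14.8 CPM rests on 6 Mfsd2a UMIs (5.43 to 32.2 CPM). Mfsd2a had a UMI in 25% of the 24 and 24.0% of the 338, and in 4.13% and 10.6% at equal depth. It passed the minimum of UMIs through the 338 barcodes alone. In the NG2-DsRed library no direction of Mfsd2a could be read. The 16 endothelial barcodes with at most 1 mural gene held 0 UMIs, which allows up to 26.2 CPM. The 29 with at least 3 held 5 UMIs (15.9 CPM, 5.16 to 37.1). In the Tie2-GFP library Mfsd2a was the 1 member of 9 that was 2-fold apart in this split, where 6.08% of 6825 genes were that much higher in barcodes with few mural genes and 3.02% in those with many. The part of such barcodes in the difference between libraries was not tested.

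Within the mural class Cavin1 and Cavin3 were higher in barcodes with contractile genes. The 94 mural barcodes were divided by Acta2, Tagln and Myh11, genes of the contractile apparatus: 38 had a UMI of at least 2 of them (median 3749 UMIs) and 40 of none (median 2266 UMIs). This division was chosen after the values of the whole class were seen. Cavin1 was at 679 CPM (561 to 814) in contractile and 162 CPM (90.8 to 267) in other mural barcodes, and Cavin3 at 462 CPM (366 to 576) and 86.5 CPM (37.3 to 170). Ehd2 was at 246 CPM (177 to 332) and 119 CPM (59.4 to 213). These 3 were the members with at least 50 UMIs. Over 823 genes with that many, 16% were at least 2-fold higher in contractile and 8.51% in the other mural barcodes. The members passed the minimum mainly through the contractile barcodes, so no count over them is read against these shares. Their log2 ratios were 2.07 (1.28 to 2.95) for Cavin1, 2.42 (1.37 to 3.68) for Cavin3 and 1.05 (0.06 to 2.15) for Ehd2.

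The caveolins were too few for that count but leaned the same way. Cav1 had 33 UMIs in contractile and 6 in other mural barcodes, a log2 ratio of 1.57 (0.30 to 3.12), and Cav2 had 34 and 3 UMIs, a log2 ratio of 2.62 (0.95 to 4.96). Ehd4 had 15 and 3 UMIs, with an interval that held 0 (−0.39 to 3.87). Cavin2 and Plvap had 0 UMIs in both groups. At equal depth the expected share of barcodes with Cavin1 was 73.7% against 26.4%, and with Cavin3 52.2% against 21.6%, over the 32 of 38 contractile and 15 of 40 other barcodes that were deep enough, with 6 and 25 left out. For Cav2 this share was 36.9% against 3.97%. For Cav1 it was 31.7% against 24.3%, so the groups were close for Cav1 by this measure. Unthinned, Cavin1 had a UMI in 31 of 38 and 13 of 40, and Cavin3 in 22 and 7. Other mural barcodes had more of the pericyte genes Pdgfrb (3157 against 1369 CPM) and Vtn (7297 against 3294 CPM), while Rgs5 (8886 against 8631 CPM) and Notch3 (1265 against 1059 CPM) were nearly even. Mural barcodes were classed by these genes, so their levels are not independent of the rule, and the other barcodes were shallower. Of the 8 further mural markers 2 were at least 2-fold higher in contractile barcodes, Des and Acta2, the latter used in the division, and 2 were lower, Kcnj8 and Abcc9. The 6 endothelial genes had 0 to 5 UMIs each in either group. A mural barcode could hold at most 1 of them, so these low counts follow from the rule of the class. With all 3 contractile genes required, with at most 1 allowed in the other group, and in mural barcodes with no endothelial gene, the ratios kept their direction for Cav1, Cav2, Cavin1, Cavin3, Ehd2 and Ehd4. Ehd2 came under 2-fold with at most 1 contractile gene allowed in the other group (log2 0.61) and with equal weight of barcodes (0.89).

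**Figure D2:**
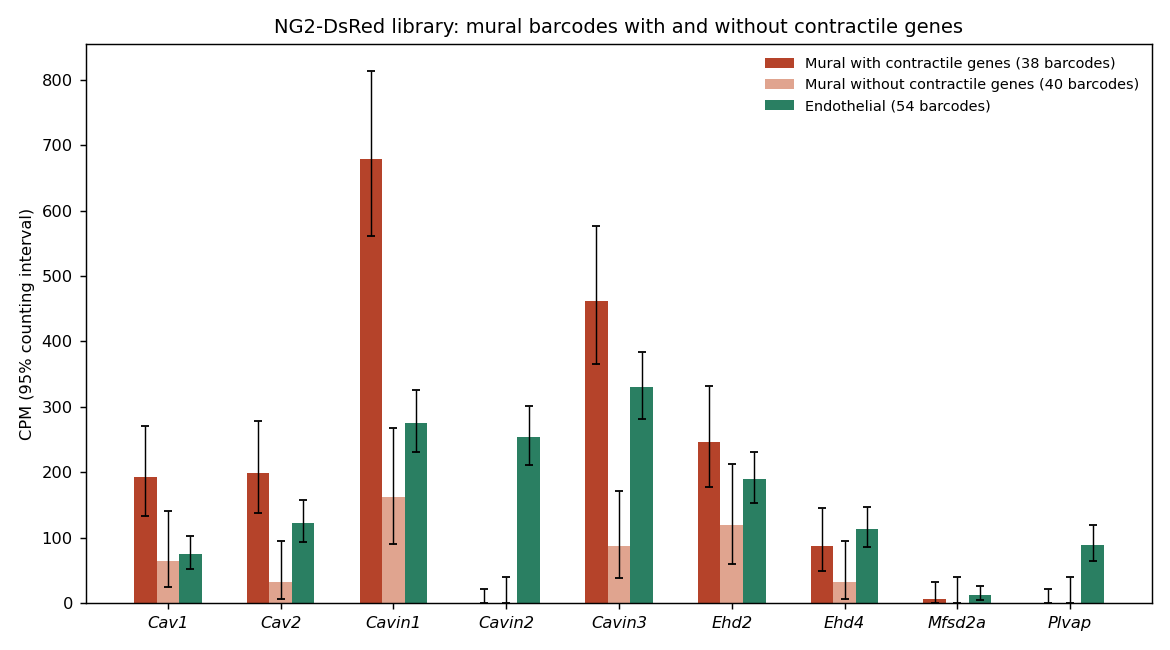
Level in CPM of the 9 genes in mural barcodes of the NG2-DsRed library with at least 2 of Acta2, Tagln and Myh11 (38 barcodes, dark red), with none of them (40 barcodes, light red) and in endothelial barcodes of the same library (54 barcodes, green); error bars are 95% Poisson intervals. Cavin1 was at 679, 162 and 275 CPM in the 3 groups, and Cavin2 and Plvap had bars only in endothelial barcodes.

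Within the Tie2-GFP ECs the genes were compared along the arteriovenous axis. Each of the 368 endothelial barcodes was scored by 13 arterial genes (such as Sema3g and Gja4) minus 12 venous genes (such as Nr2f2 and Slc38a5), and the 92 barcodes at the arterial end were set against the 92 at the venous end. These are ranges of a score rather than cell types, with 26 and 17 barcodes within 0.1 SD of the upper and lower limit. No member was 2-fold apart, 0 of 9, where 3.09% of 4761 genes were higher in the arterial and 2.1% at the venous end. The intervals of 3 members left out 0, 1 of them above and 2 below, where those of 12.1% of the 4761 genes lay above and of 9.93% below. Mfsd2a was at 48.3 CPM (34.3 to 66.0) at the arterial and 27.3 CPM (17.1 to 41.3) at the venous end, a log2 ratio of 0.82 (0.03 to 1.65). Over all 368 barcodes its level was 48.7 CPM and its correlation with the score 0.03, so no gradient of Mfsd2a along the score was shown. Between the ends Plvap had the opposite direction, with 39.6 CPM (27.1 to 55.9) and 73.1 CPM (55.7 to 94.3), a log2 ratio of −0.88 (−1.55 to −0.24). The correlation of Plvap with the score was −0.14. Cavin2 was at 666 and 889 CPM (log2 −0.42, −0.58 to −0.25). The arterial end held 8 barcodes with at least 3 mural genes and the venous end 1 (Rgs5 at 894 against 197 CPM). The alternatives included endothelial barcodes with at most 1 mural gene. Across them the log2 ratios ran from −1.51 to −0.71 for Plvap, −0.47 to −0.19 for Cavin2 and 0.44 to 0.97 for Mfsd2a. Cavin1 was even, at 401 and 404 CPM, and the log2 ratios of Cav1, Cav2, Cavin3, Ehd2 and Ehd4 lay between −0.07 and 0.31.

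Mfsd2a and Plvap were also compared in single barcodes. Of the 368 endothelial barcodes 18 held both, 71 Mfsd2a alone, 81 Plvap alone and 198 neither, where the shares of both genes would give 23.9 with both. Plvap was at 22.3 CPM in the 89 barcodes with an Mfsd2a UMI and at 69.1 CPM in the 279 without, a log2 ratio of −1.63 (−2.36 to −0.97), although barcodes with Mfsd2a were deeper (median 9475 against 7257 UMIs). Plvap was present in 20.2% and 29.0% of them, and in 6.09% and 14.6% at equal depth. Of 6897 other genes with at least 50 UMIs, 1.33% were at least 2-fold lower in barcodes with Mfsd2a, as Plvap was, and 0.406% higher. The intervals of the other 7 members held 0 in this split, and their log2 ratios ran from −0.39 for Cav1 to 0.20 for Ehd4. Split the other way, Mfsd2a was at 37.2 CPM with and 53.9 CPM without a Plvap UMI, and the interval held 0 (log2 −0.53, −1.10 to 0.002). In the NG2-DsRed library 0 of 54 endothelial barcodes held both genes, 3 held Mfsd2a and 20 Plvap, too few for a comparison.

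**Figure D3:**
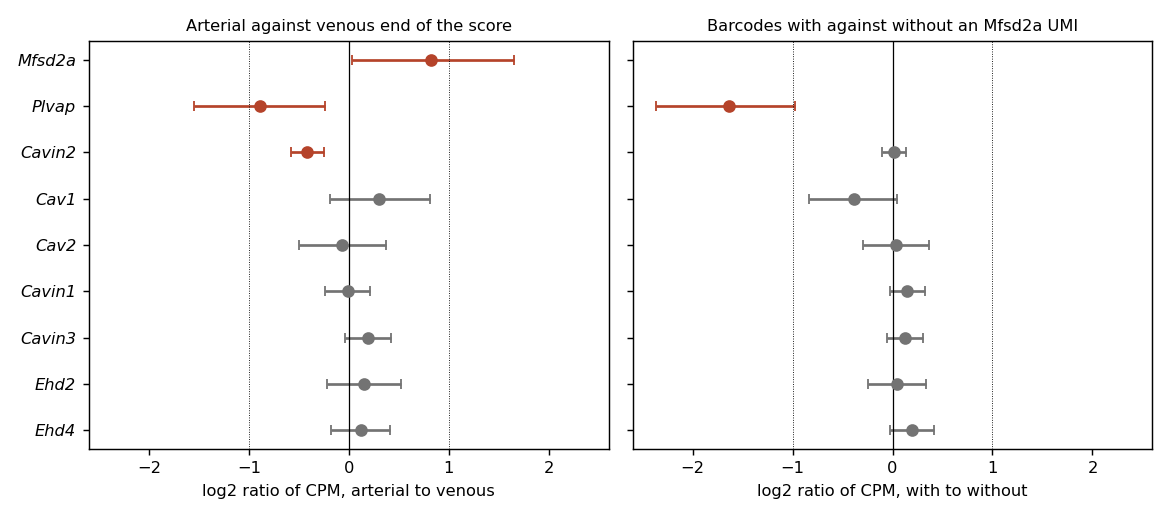
Log2 ratios of CPM with 95% intervals within Tie2-GFP endothelial barcodes, for the arterial against the venous end (left) and for barcodes with against without an Mfsd2a UMI (right); dotted lines mark 2-fold, and red points have intervals that leave out 0. Plvap was lower at the arterial end and in barcodes with Mfsd2a (log2 −0.88 and −1.63). Cavin1, Cavin3, Cav1 and Cav2 had intervals that held 0 in both panels, while Cavin2 was lower at the arterial end (log2 −0.42).

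Correlations between members over single endothelial barcodes were weak. Over the 36 pairs the median Pearson r of log-normalized UMIs was 0.03 in the Tie2-GFP library (lowest pair −0.11, highest pair 0.28, 368 barcodes), against a median of 0.01 over all pairs of 4911 genes present in at least 20% of the barcodes. The barcodes share 1 library and differ in depth, which raises r between genes alike. Cavin1 with Cavin3 was the 1 pair at or above 0.2 (2.78% of member pairs, background 0.482% of all pairs), with r of 0.28, a Spearman rho of 0.25, 0.23 with UMIs per barcode held fixed, and 0.18 in the NG2-DsRed library. Mfsd2a with Plvap was the lowest pair, at −0.11, next to Mfsd2a with Cav1 at −0.10. Cav1 with Cav2, neighbours on the chromosome, had an r of 0.12 and Cav1 with Cavin1 the same. In the 54 endothelial barcodes of the NG2-DsRed library 28 pairs were of members present in at least 20% of the barcodes, with a median of 0.04, and 4 of them (14.3%, background 10.4%) reached 0.2, led by Cavin1 with Cavin2 at 0.42, a pair at 0.02 in the Tie2-GFP library. In sparse counts such values are descriptions only.

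**Figure D4:**
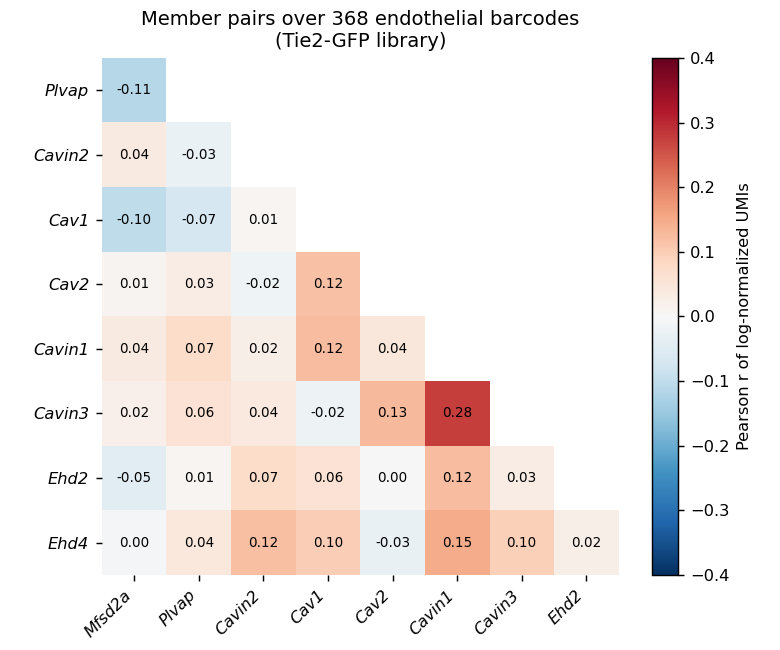
Pearson r of log-normalized UMIs for the 36 pairs of the 9 genes over the 368 endothelial barcodes of the Tie2-GFP library, with the value printed in each square and red for positive and blue for negative values. Cavin1 with Cavin3 (0.28) stands out, and Mfsd2a is below 0 with Plvap and Cav1.

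The spread of UMIs between endothelial barcodes, relative to counting noise (which gives 1), was also compared, without matching genes by level, on which it depends. In the Tie2-GFP library it was 4.90 for Cavin2, 3.24 for Mfsd2a, 2.16 for Plvap and 2.09 for Cavin3, against a median of 1.26 over 4911 genes. Cav2 and Ehd2 varied little beyond counting there, at 1.08 and 1.15, but were at 1.41 and 1.36 in the NG2-DsRed library, above its median of 1.23. In the NG2-DsRed library Mfsd2a, Plvap and Cavin2 were the members with the widest spread, at 2.14, 2.01 and 2.01. The Mfsd2a value there rests on 6 UMIs in 3 barcodes.

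Among the genes present in at least 20% of Tie2-GFP endothelial barcodes, the 5 whose r with Mfsd2a was highest were Zc3h14 (0.25), Kif2a (0.24), Adrb1 (0.23), Paxbp1 (0.22) and St5 (0.22). For Cav1 they were Tbl1x (0.25), Polr2k (0.21), Shc1 (0.21), Mvb12a (0.21) and S100a10 (0.20). For Plvap they were Ctla2a (0.28), Gpihbp1 (0.27), Abca1 (0.23), Pkm (0.21) and Robo4 (0.21). Of these 15 pairs the ones of St5 with Mfsd2a (0.22) and of Ctla2a with Plvap (0.29) were at or above 0.2 in the NG2-DsRed library, where 10.4% of all pairs were, and the Mfsd2a value there rests on 6 UMIs in 3 barcodes. Gpihbp1, which binds lipoprotein lipase on capillary ECs, was at 126 CPM in Tie2-GFP endothelial barcodes and, like Plvap, higher at the venous end, at 175 against 40.9 CPM. Of the lipid uptake genes listed below it was the 1 of 3 with enough UMIs that differed 2-fold in this split, where 2.1% of genes were higher at the venous end.

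Other genes of vesicle transport were counted from lists of each route. Of 9 further caveola genes, Cav3, Cavin4 and Pacsin1 had 0 to 4 UMIs in endothelial barcodes of the Tie2-GFP library, which left Ehd1, Ehd3, Pacsin2, Pacsin3, Flot1 and Flot2. Within the NG2-DsRed library 0 of 3 with enough UMIs differed 2-fold between endothelial and mural barcodes (background 16.2% higher and 13.4% lower). Between Tie2-GFP endothelial and NG2-DsRed mural barcodes, where class and library change together, 5 of 6 were higher in mural barcodes (background 18.2%). These were Ehd1, Ehd3, Pacsin2, Pacsin3 and Flot2, and 0 were higher in endothelial barcodes. The median log2 ratio was −1.49 against −0.11 over all genes counted. Between endothelial barcodes alone, Tie2-GFP to NG2-DsRed, 0 of 4 with enough UMIs differed 2-fold. Their median log2 ratio was −0.49 against −0.04 over all genes counted. Against intermediate barcodes of the Tie2-GFP library (background 29.7% higher in endothelial and 17.2% in intermediate barcodes) 1 of 6 was higher in endothelial barcodes, Ehd1 (log2 1.14), and 3 were lower, Ehd3, Pacsin3 and Flot2, a median log2 ratio of −0.59 against 4.08 over the 9 members and 0.25 over all genes counted. Between the ends of the arteriovenous score 1 of 3 with enough UMIs differed 2-fold (background 3.09% higher at the arterial and 2.1% at the venous end). This was the membrane-bending Pacsin2, which assists caveolae, at 70.6 CPM at the arterial against 27.3 CPM at the venous end. Of the lists below, 1 of 15 clathrin genes, 1 of 8 receptors and 1 of 2 tetraspanins were higher at the arterial end, and 1 of 8 receptors at the venous end.

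The clathrin route, through which receptors are taken up, had 2 of 10 genes higher in endothelial than mural barcodes of the NG2-DsRed library, Cltb (2.49-fold) and the adaptor Ap2b1 (2.02-fold), and 0 lower, at a median log2 ratio of 0.11 over the 10 against 0.003 over all genes counted, of which 16.2% were higher and 13.4% lower. Against intermediate barcodes of the Tie2-GFP library 6 of 15 were higher and 0 lower (median 0.76, all genes 0.25, background 29.7% and 17.2%), led by Dnm3, a dynamin (157 against 0.829 CPM), and by the adaptor Dab2, at least 56.8-fold. Dnm3 and Dab2 passed the minimum of UMIs through endothelial barcodes alone. Of the receptors known to carry ligands across or into ECs, 3 of 6 were higher in endothelial than in mural barcodes of the NG2-DsRed library (background 16.2%): Scarb1 (10.9-fold), a lipoprotein receptor, Acvrl1 (7.96-fold), a BMP receptor that also binds LDL, and Insr (2.80-fold), the insulin receptor. Lrp1 was 4.60-fold higher in mural barcodes (background 13.4%), and the median log2 ratio over the 6 was 0.90. Against intermediate barcodes of the Tie2-GFP library 6 of 11 receptors were higher in endothelial barcodes and 2, Vldlr and Igf2r, were lower (median 1.69, background 29.7% and 17.2%). Fcgrt, the receptor that moves IgG through cells, was among the 6, at 120 against 37.3 CPM. Tfrc, the transferrin receptor, was at 57.5 CPM in Tie2-GFP endothelial barcodes and had too few UMIs in the NG2-DsRed library.

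Genes of lipid uptake and of small vesicles were counted in the same way. Of 10 lipid uptake genes, the fatty acid carriers Cd36, Fabp4 and Fabp5 had 2, 0 and 4 UMIs over the 368 Tie2-GFP endothelial barcodes. Against intermediate barcodes Gpihbp1 (at least 50.7-fold) and Acsl5 (4.08-fold) were higher in ECs, and Slc27a1 (20.1-fold) and Acsl3 (3.10-fold) higher in intermediate barcodes, of 5 genes with enough UMIs (median 0.61, background 29.7% and 17.2%). Gpihbp1 passed the minimum of UMIs through endothelial barcodes alone. Acsl3 was at 147 CPM in mural and 34.2 CPM in NG2-DsRed endothelial barcodes, the 1 lipid gene of the list with enough UMIs (background 13.4% higher in mural). Of the 3 tetraspanins of small vesicles, only Cd63 differed 2-fold between endothelial and mural or intermediate barcodes of the same library. It was 4.26-fold higher in mural and 47.4-fold higher in intermediate barcodes (background 13.4% and 17.7%). Cd9 was, like Cavin1 and Cavin3, higher in contractile than in other mural barcodes, at 421 against 75.7 CPM (log2 2.48, 1.36 to 3.84). It was 1 of 3 tetraspanins to be so (background 16%), and the median log2 ratio of the 3 was −0.13.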

How the data were processed

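For each library the deposited matrix holds unnormalized UMI counts. Its header gives Cell Ranger 7.0.0 for Tie2-GFP and software 3.0.0 for NG2-DsRed, and the submitters' processing notes name mm10 and bcl2fastq 2.20.0.422. Whether introns were counted is not given in the sources used here. Endothelial and mural barcodes passed the limits of the methods (200 to 6000 genes and 200 to 30000 UMIs for Tie2-GFP, 200 to 5000 and 200 to 20000 for NG2-DsRed, at most 5% mitochondrial and 40% ribosomal UMIs); intermediate barcodes had no mitochondrial limit, since 6 would have been left in the Tie2-GFP library. UMIs were summed per class in Python 3.11.15 (numpy 2.4.6, scipy 1.17.1), with exact Poisson, Clopper-Pearson and conditional binomial intervals. A class at 0 UMIs was set to 3 counts for a lower bound, and thinned shares are exact expectations. Correlations used log(1 + UMIs per 10000). Scrublet (scanpy 1.11.5) marked 0 of 633 and 6 of 201 barcodes as doublets, which were kept. Named genes were the 9 members, the 5 genes most alike to Mfsd2a, Cav1 and Plvap, and list genes past 2-fold. The members and lists were chosen with earlier results of these data known. The ratio, thinning and correlation steps were tested on simulated counts.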

Additional observations from a re-analysis of the deposited data

Results flagged for a closer look

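Cav2 was marked because the ratio of endothelial to intermediate barcodes had opposite signs in the 2 libraries. Its log2 ratio was 1.09 (0.71 to 1.49) in the Tie2-GFP library and −0.26 (−0.88 to 0.37) in the NG2-DsRed library. Endothelial levels were close in both, at 115 and 123 CPM, and intermediate levels were 53.9 CPM over 84 barcodes and 147 CPM over 23 barcodes. With each barcode weighted equally the intermediate levels were 99.9 and 130 CPM. In the Tie2-GFP library this gives full weight to 3 barcodes with fewer than 2575 UMIs, which the shares at equal depth leave out. At equal depth the shares of intermediate barcodes with Cav2 were 10.6% and 29.6%, against 26.2% and 26.5% of endothelial barcodes. The difference between libraries was not tested, since each line has 1 library, and the interval of the NG2-DsRed library held 0.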

How the results depend on the processing

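No paired analysis was possible because each line has 1 library and no test was run. The count of members higher in endothelial than mural barcodes (1) was 2 with no limits on barcodes, with equal weight of barcodes and with at least 20 UMIs, 3 with no filter on UMIs, and 4 with Tie2-GFP endothelial barcodes, also when these had at most 1 mural gene (chosen after seeing the data). It stayed 1 with endothelial barcodes of 3 or 4 mural genes left out (also added), where Cav1, on few UMIs, passed 2-fold towards mural barcodes at −1.45 in place of −0.85. The count against intermediate barcodes (8) was 5 in the NG2-DsRed library, where the log2 ratio of Cav2 turned to −0.26, and 7 to 9 under the other alternatives. The count between the ends of the arteriovenous score (0) was 1 with the arterial list alone, Plvap at a log2 ratio of −1.51, and 3 when an interval without 1 replaced 2-fold (also added after the values were seen). The median correlation (0.03) stayed between 0.01 and 0.04 under 11 alternatives. Plvap in barcodes with against without Mfsd2a stayed between −1.65 and −1.63 under 6. Among the alternatives, the methods' limits for every class and the removal of doublets left the Tie2-GFP endothelial barcodes unchanged. They could not move a value taken within these barcodes. Not run were the Tie2-GFP library and endothelial barcodes with at most 1 mural gene for the mural comparison, the methods' limits for every class against intermediate barcodes, and the ends of that score in the NG2-DsRed library, since a class held fewer than 20 barcodes. Depth limits Mfsd2a most: 6 UMIs in NG2-DsRed endothelial and 1 in mural barcodes.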
